A study of Homo sapiens with 12 samples.

Results

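The genes described here are 34 genes of the ATF4 and amino-acid response, taken by symbol from a fixed list. Each was read from the probe set annotated to exactly that symbol, and where a gene had several, from the probe set with the highest mean over all 12 arrays. This found 32 of the 34, among 18417 genes with a probe set of their own. CBS, which makes cystathionine, shares its probe set with another annotated locus, and no probe set was matched to GPT2, an alanine aminotransferase, so neither is described further.

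The study used 12 Affymetrix Human Gene 1.0 ST arrays to measure RNA in U2OS-ER-alpha cells, an established human osteosarcoma line that carries estrogen receptor alpha. Every group was transfected with 50 nM of a siRNA pool and kept in medium with charcoal-stripped serum, which holds little steroid hormone. NT_V cells had a non-targeting pool and ethanol vehicle, NT_E cells the same pool and 17-B-estradiol for 3 h. The siSRC-1_V and siSRC-1_E cells had a pool against SRC-1, the steroid receptor coactivator encoded by NCOA1, with vehicle and with estradiol. Each group held 3 arrays labelled as biological replicates of this 1 line, so a p-value reflects only how far these replicates spread. The design also names a siRNA pool against GSK3, not analysed here. As each array holds bulk RNA, fewer cells with a transcript and less of it per cell cannot be told apart. Levels of different probe sets are not compared.

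The integrated stress response senses shortage of amino acids, misfolded protein and other stress through kinases that phosphorylate the initiation factor eIF2. General translation then slows, while the transcript of the transcription factor ATF4 is translated more. ATF4, often paired with a C/EBP protein, switches on genes that import and make amino acids, and, when stress lasts, genes that brake growth or favour cell death. Because ATF4 is set largely by translation, its transcript need not follow its activity; the arrays measure RNA, and ATF4 protein was not measured.

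The siRNA label was borne out by NCOA1, with a mean of 8.79 ± 0.06 log2 (SD, n = 3) in NT_V, 9.08 ± 0.07 in NT_E, 5.86 ± 0.29 in siSRC-1_V and 6.86 ± 0.07 in siSRC-1_E. SRC-1 siRNA lowered it 7.60-fold under vehicle and 4.64-fold under estradiol, and with SRC-1 siRNA it was 2.00-fold higher after estradiol (limma adjusted p = 0.00029), so the siSRC-1 groups differ in residual NCOA1. Group means of ESR1, the receptor gene, lay between 12.03 and 12.16 log2, with no call. The lowest mean was that of siSRC-1_E, whose arrays lay below all siSRC-1_V and all NT_E arrays. Lower without overlap in these comparisons were 12.8% and 11.5% of all tested probe sets. SRC-1 siRNA under estradiol gave -0.12 log2 for ESR1 (interval -0.21 to -0.033, limma adjusted p = 0.163). The part of this in the results below was not tested. All 7 mesenchymal markers looked at, among them VIM and SPARC, had means above the arrays' lower quartiles of 5.17 to 5.24 log2. Of 7 markers of epithelial, blood and endothelial cells 4 did so too, among them the epithelial keratin gene KRT8 at 11.16 log2; the leukocyte gene PTPRC, at 4.19, was under these quartiles. In limma 2 of the 7 mesenchymal markers, COL1A2 and TWIST1, were called lower for estradiol with SRC-1 siRNA (adjusted p = 0.047 and 0.0164). Of all tested probe sets 6.88% were called there, and 2.39% were called lower. COL1A2 held without siSRC-1_V replicate 1 or siSRC-1_E replicate 2 and was lost without each of the other 10 arrays (0.0501 to 0.158). It was also lost with quantile normalization (0.0505), a trended and robust variance (0.0732) and all probe sets tested (0.0516). TWIST1 was lost without siSRC-1_V replicate 2 or 3 or siSRC-1_E replicate 1 or 2 (0.0527 to 0.0663). On the compared arrays alone neither was called (0.139 and 0.0846), nor with the covariate described next (0.951 and 0.528). Also called was the blood marker LYZ, in 3 comparisons. It was higher for estradiol with non-targeting and SRC-1 siRNA (0.89 and 0.47 log2) and lower for SRC-1 siRNA under estradiol (-0.35). Of all tested probe sets 2.73%, 6.88% and 1.80% were called in these. LYZ read 3.98 to 5.00 log2 over all arrays, under the lower quartiles. The summed linear level of the mesenchymal markers ranged from 15580 to 16210 in NT_V, 15190 to 15910 in NT_E, 15650 to 16710 in siSRC-1_V and 15790 to 15890 in siSRC-1_E, and that of the others from 2429 to 2717, 2484 to 2619, 2618 to 2724 and 2492 to 2780; the part of these in the results below was not tested. For 4203 probe sets taken as controls, the array's mean deviation from each probe set's own mean over the 12 arrays was higher with estradiol. It went from -0.076 ± 0.043 log2 (SD, n = 3) in NT_V to 0.032 ± 0.036 in NT_E, and from -0.091 ± 0.067 in siSRC-1_V to 0.135 ± 0.042 in siSRC-1_E. Its part in the results was not tested beyond the values given with it as a covariate. All estradiol arrays lay above all vehicle arrays of the same pool in this deviation, and all siSRC-1_E arrays above all NT_E arrays. In these comparisons the fit with the covariate separates it poorly from the compared groups. A call lost there cannot tell the covariate's part from that of the treatment.

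Of the 32 amino-acid response genes, 26 were called in no comparison. A gene is called where limma's p is below 0.01 and its value after Benjamini-Hochberg adjustment over all 29094 tested probe sets is below 0.05. The remaining 6 genes gave 8 calls over 5 comparisons, in which 2.73%, 6.88%, 1.21%, 1.80% and 0% of all tested probe sets were called: estradiol with non-targeting and with SRC-1 siRNA, SRC-1 siRNA under vehicle and under estradiol, and the difference of the estradiol effects. They were the amino acid transporter genes SLC38A2 and SLC1A4, the stress-response targets TRIB3, SESN2 and CHAC1, and the serine synthesis gene PSAT1. The largest of these changes was a 1.36-fold decrease of PSAT1.

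**Figure D1:**
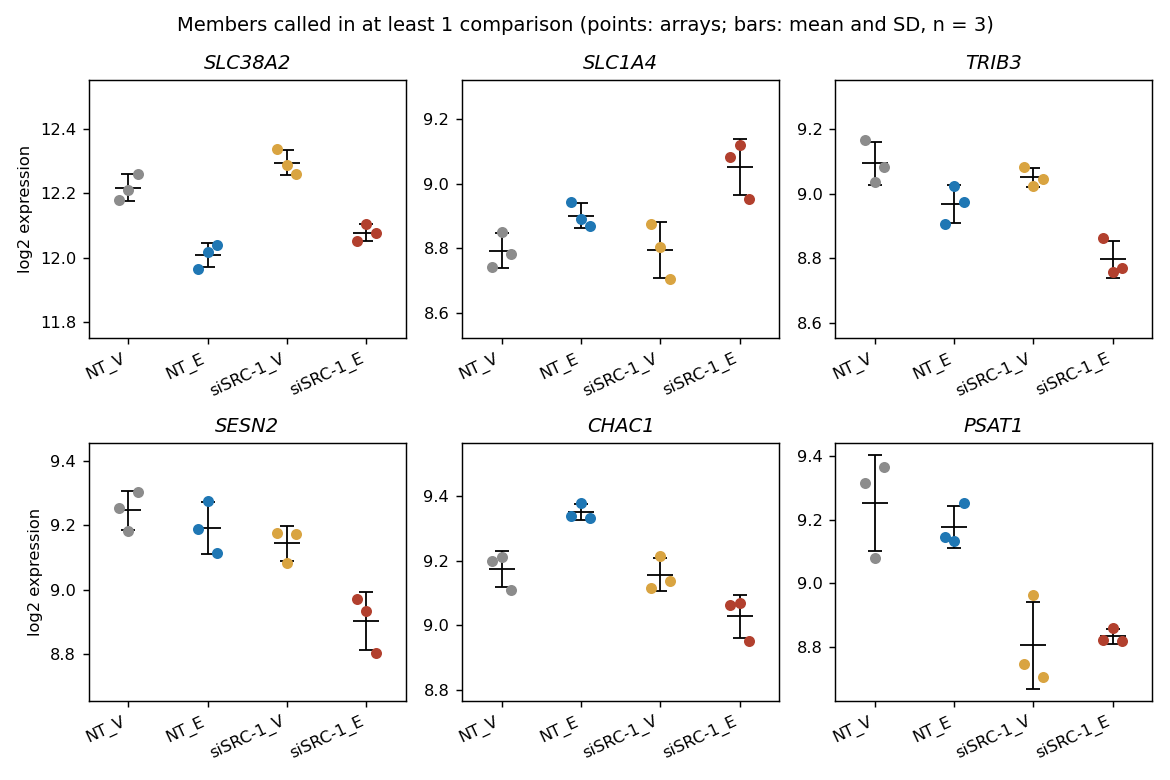
Log2 expression of the 6 called members on each of the 12 arrays, by group (points are arrays, bars the mean and SD of 3); each panel has its own vertical range. SLC38A2 is lower in both estradiol groups, TRIB3, SESN2 and CHAC1 are lowest in siSRC-1_E, and PSAT1 is lower in both SRC-1 siRNA groups.

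ATF4 and C/EBP proteins bind together at a composite amino acid response element, with the core TGATGNAA on either strand (TTNCATCA when read on the other). In RefSeq promoter windows of GRCh38.p14, from 250 bases before to 50 after each start, 26 of the 34 genes had at least 1 window. The core was present in 7 of these 26 genes (26.9%), against 4.46% of 27305 genes, and in 3.62% of all 35116 windows. In ASNS, CHAC1, JDP2, SLC1A4 and SLC1A5 it began before the start. These 5 are printed since CHAC1 and SLC1A4 are among the called genes, and ASNS, JDP2 and SLC1A5 carry the same core and were not called. Each line runs 60 bases in the direction of transcription, with the core in capitals.
ASNS: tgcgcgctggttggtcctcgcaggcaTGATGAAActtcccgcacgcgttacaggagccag
CHAC1: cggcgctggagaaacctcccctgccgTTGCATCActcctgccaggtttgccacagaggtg
JDP2: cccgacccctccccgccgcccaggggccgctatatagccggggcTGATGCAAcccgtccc
SLC1A4: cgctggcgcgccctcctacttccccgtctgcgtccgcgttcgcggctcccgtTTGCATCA
SLC1A5: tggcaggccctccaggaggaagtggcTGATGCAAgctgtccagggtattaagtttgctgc
The ASNS stretch is chr7:97872443-97872502 on the minus strand, with the core starting 68 bases before the start site. CHAC1 is chr15:40953236-40953295 on the plus strand, with the core 209 bases upstream. JDP2 is chr14:75427962-75428021 (plus, 16 bases upstream), SLC1A4 chr2:64989340-64989399 (plus, 7 bases upstream) and SLC1A5 chr19:46784878-46784937 (minus, 97 bases upstream). In SLC3A2 and SLC7A1 the core lay 37 and 7 bases past the start. SLC38A2, TRIB3, SESN2 and PSAT1 had windows without these letters, which says nothing of sites elsewhere. The perfect palindromic estrogen response element was in none of the 42 windows of these genes and in 20 of all 35116 windows. A match is a description of sequence, and binding was not measured.

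Estradiol with non-targeting siRNA asks what the hormone does to this program within 3 h when SRC-1 is present. A single member was called: SLC38A2, lower, 1 of 32, where 2.73% of all tested probe sets were called (1.85% higher and 0.873% lower). The median log2 difference over the 32 was -0.0074, against -0.011 over all tested probe sets. The median size was 0.059 log2 against 0.065. The 95% intervals of all 32 lay within 0.5 log2 of no change, and those of 28 (87.5%) within 0.3, against 70.91% of all tested probe sets. The median SE was 0.050 log2 over the members and 0.071 over all tested. In limma 5 members (15.62%) had an unadjusted p under 0.05, as had 13.28% of all tested probe sets. Groups of arrays did not overlap for 12 of the 32, 7 higher and 5 lower, and for 21.0% of all tested probe sets (10.1% higher and 10.9% lower).

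SLC38A2 encodes a sodium-coupled transporter of small neutral amino acids that cells raise when amino acids are short. Its values were 12.18, 12.21 and 12.26 log2 in NT_V and 11.97, 12.02 and 12.04 in NT_E. All NT_E arrays lay below all NT_V arrays. The log2 difference was -0.21 ± 0.042 (SE, 3 arrays per group), a 1.16-fold decrease with a 95% interval from -0.30 to -0.12 (limma adjusted p = 0.0215). With SRC-1 siRNA the values were 12.34, 12.29 and 12.26 log2 in siSRC-1_V and 12.05, 12.10 and 12.08 in siSRC-1_E, again without overlap. That difference was -0.22 ± 0.042, also called (adjusted p = 0.0107). The estradiol effects with the 2 siRNA pools differed by -0.0079 log2, with an interval from -0.14 to 0.12. The call with non-targeting siRNA was lost without NT_V replicate 2 or 3 (adjusted p = 0.0671 and 0.0963) or NT_E replicate 1 or 2 (0.0886 and 0.0686), at -0.19 to -0.23 log2 over all such fits. With the control probe set mean as a covariate the differences were -0.23 and -0.27 log2 with adjusted p of 0.121 and 0.409, and neither was called; fitted on the 6 compared arrays alone, neither was called either (0.0926 and 0.0659).

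The other 6 transporters were not called with non-targeting siRNA, although in 5 of them every NT_E array read above every NT_V array, which 10.1% of all tested probe sets did. SLC7A11, the cystine importer that feeds glutathione synthesis, read 10.79, 10.77 and 10.81 log2 in NT_V and 10.92, 10.87 and 11.06 in NT_E. Its difference was 0.16 ± 0.068 (SE; adjusted p = 0.34). SLC7A5, which carries leucine and other large neutral amino acids, and SLC3A2, its heavy chain partner, both differed by 0.059 log2. SLC1A5, the glutamine carrier, differed by 0.056 and SLC1A4 by 0.11. SLC7A1, which imports arginine and lysine, differed by -0.020. With SRC-1 siRNA the values for SLC7A11, SLC7A5, SLC3A2 and SLC7A1 were 0.017, -0.0091, -0.026 and -0.048 log2, none of them called. SLC1A5 differed by 0.048, again with all estradiol arrays above vehicle and no call. Its gaps were narrow: 11.0711 in NT_E against 11.07 in NT_V, and 11.0244 in siSRC-1_E against 11.022 in siSRC-1_V. A lower-reading probe set of SLC1A5, at 6.88 log2 over all arrays, gave 0.058 and 0.053. Its arrays overlapped with both pools, and it was not called. Under the non-targeting pool the transporters thus held the called decrease of SLC38A2 beside small uncalled positive values in 5 of the other 6. Under the SRC-1 pool SLC1A4 was called higher, at 0.26 log2, as described below.

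The upstream arm gave no call with either siRNA. EIF2AK3, the eIF2 kinase of the endoplasmic reticulum, differed with estradiol by -0.058 log2 with non-targeting and -0.025 with SRC-1 siRNA. PPP1R15A, which directs the phosphatase that resets eIF2, differed by 0.066 and -0.11. ATF4 read 11.38, 11.37 and 11.43 log2 in NT_V, 11.43, 11.40 and 11.37 in NT_E, 11.38, 11.29 and 11.29 in siSRC-1_V, and 11.35, 11.37 and 11.37 in siSRC-1_E. These ranges overlap between vehicle and estradiol with both pools, and the differences were 0.0073 (interval -0.083 to 0.098) and 0.041 (-0.049 to 0.13). A lower-reading probe set of ATF4, at 9.75 log2 over all arrays, gave 0.087 and 0.067, also not called.

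Differences of the partner and downstream factors were small too. ATF5, a relative of ATF4, differed by 0.012 and -0.0017 log2 with non-targeting and SRC-1 siRNA. DDIT3, the pro-death factor CHOP, differed by 0.011 and 0.0027, with intervals from -0.19 to 0.21 and -0.19 to 0.20. JDP2, which binds AP-1 and CRE sites as a repressor, differed by -0.098 and -0.051. Its interval with non-targeting siRNA, from -0.19 to -0.0032, lay below 0 (limma adjusted p = 0.357). NUPR1, a small stress-induced chromatin protein, differed by -0.059 and -0.022. All its NT_E arrays lay below all NT_V arrays, as for 10.9% of all tested probe sets. None was called, and no interval of these 7 upstream and factor genes reached 0.3 log2 in either estradiol comparison.

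**Figure D2:**
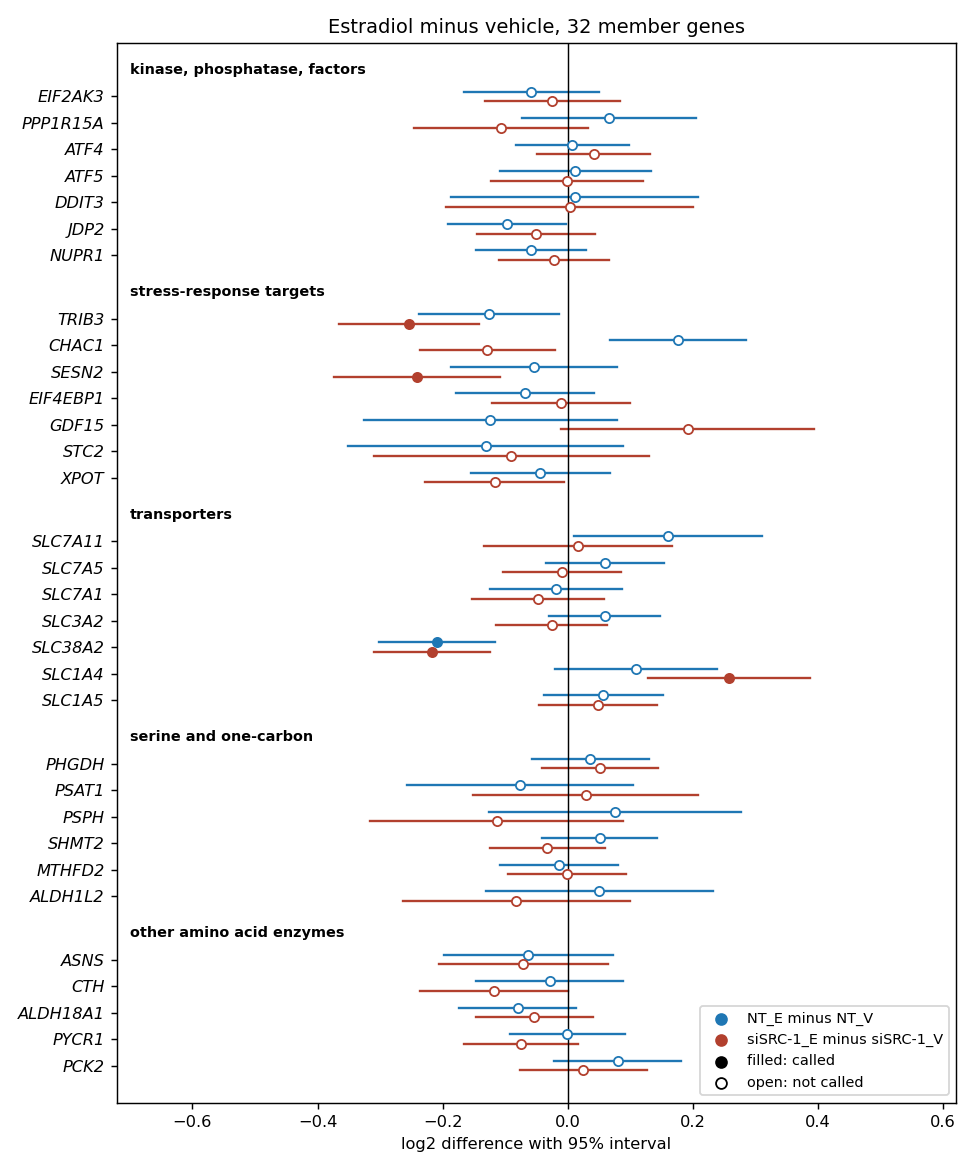
Log2 difference of estradiol minus vehicle for the 32 members, grouped by role, with non-targeting siRNA (blue) and SRC-1 siRNA (red); lines are 95% intervals and filled points are called. Filled points are SLC38A2 with both pools and TRIB3, SESN2 and SLC1A4 with SRC-1 siRNA, and CHAC1 has intervals on opposite sides of 0.

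The response to estradiol was then compared in cells with less SRC-1 RNA. Here 4 of 32 members were called, SLC1A4 higher and TRIB3, SESN2 and SLC38A2 lower, where 6.88% of all tested probe sets were called (4.49% higher and 2.39% lower). The median difference was -0.030 log2 over the members and -0.016 over all tested probe sets. The median size was 0.051 log2 against 0.086. Intervals of 25 members (78.12%) lay within 0.3 log2 of no change, against 62.73% of all tested probe sets, and those of all 32 within 0.5. Groups did not overlap for 9 members, 2 higher and 7 lower, and for 25.8% of all tested probe sets (12.9% higher and 12.8% lower).

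TRIB3 encodes a pseudokinase that ATF4 and CHOP induce and that dampens AKT signalling. It read 9.08, 9.02 and 9.05 log2 in siSRC-1_V and 8.86, 8.76 and 8.77 in siSRC-1_E, with no overlap. The difference was -0.25 ± 0.051 log2 (SE, 3 arrays per group), a 1.19-fold decrease (limma adjusted p = 0.0128), and the call held in all 12 fits that each left out 1 array. With non-targeting siRNA the values were 9.17, 9.04 and 9.08 log2 in NT_V and 8.91, 9.02 and 8.97 in NT_E, also without overlap, at a difference of -0.13 that was not called (adjusted p = 0.30). The effects with the 2 pools differed by -0.13 log2 (interval -0.29 to 0.031), which was not called. With the control probe set mean as a covariate the difference with SRC-1 siRNA was -0.40 ± 0.11 (adjusted p = 0.235), and fitted on the compared arrays alone the adjusted p was 0.0517.

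SESN2 encodes sestrin 2, a leucine sensor that restrains mTORC1. It read 9.17, 9.08 and 9.17 log2 in siSRC-1_V and 8.97, 8.93 and 8.80 in siSRC-1_E, so the arrays did not overlap. The difference was -0.24 ± 0.060 log2 (SE; 1.18-fold, adjusted p = 0.0371). With non-targeting siRNA SESN2 read 9.25, 9.18 and 9.30 log2 in NT_V and 9.19, 9.27 and 9.11 in NT_E, which overlap, at a difference of -0.055 (adjusted p = 0.769). The effects differed by -0.19 log2 (interval -0.37 to 0.0015; adjusted p = 0.695). This call was near the threshold: of 12 fits that each left out 1 array it held in 5, those without NT_V replicate 2 or 3, NT_E replicate 2 or 3, or siSRC-1_E replicate 1. In the other 7, without NT_V replicate 1, NT_E replicate 1, any siSRC-1_V replicate or siSRC-1_E replicate 2 or 3, the adjusted p was 0.0533 to 0.12. It was also lost with the covariate (-0.26 log2, 0.608) and with only the compared arrays (0.101).

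SLC1A4, a carrier of serine, alanine, cysteine and threonine, whose promoter core is printed above, read 8.88, 8.80 and 8.70 log2 in siSRC-1_V and 9.08, 9.12 and 8.95 in siSRC-1_E. All estradiol arrays lay above all vehicle arrays. The difference was 0.26 ± 0.059 log2 (SE), a 1.20-fold increase (adjusted p = 0.0245). With non-targeting siRNA it read 8.74, 8.85 and 8.78 in NT_V and 8.94, 8.89 and 8.87 in NT_E, also without overlap, at 0.11 (adjusted p = 0.474). The effects differed by 0.15 log2 (interval -0.034 to 0.33; adjusted p = 0.748). The call was lost without siSRC-1_V replicate 2 or 3 (0.0725 and 0.0908) or siSRC-1_E replicate 1 or 2 (0.0849 and 0.0733), with the covariate (0.37 log2, 0.397) and with only the compared arrays (0.106).

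CHAC1 encodes an enzyme that breaks down glutathione and is a sensitive readout of ATF4 and CHOP. It read 9.20, 9.21 and 9.11 log2 in NT_V, 9.34, 9.38 and 9.33 in NT_E, 9.12, 9.21 and 9.14 in siSRC-1_V, and 9.06, 9.07 and 8.95 in siSRC-1_E. The estradiol arrays thus lay wholly above vehicle with non-targeting siRNA and wholly below it with SRC-1 siRNA, a pattern found in 0.412% of all tested probe sets. Neither difference was called: 0.18 ± 0.049 log2 (SE; adjusted p = 0.104) and -0.13 ± 0.049 (adjusted p = 0.148). The difference between them was -0.30 log2 (interval -0.46 to -0.15; limma adjusted p = 0.458). The value with non-targeting siRNA was called when the lowest 40% of probe sets were left out (adjusted p = 0.0419) or the variance was trended and robust (0.0397). With the control probe set mean as a covariate the value with SRC-1 siRNA turned to 0.031 log2 and the difference was -0.22 (adjusted p = 0.744).

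The remaining stress-response targets were not called for estradiol. GDF15, a secreted cytokine of stressed cells, read 8.42, 8.35 and 8.34 log2 in NT_V and 8.15, 8.28 and 8.31 in NT_E. That is a difference of -0.12 without overlap, and 10.9% of all tested probe sets were lower without overlap there. With SRC-1 siRNA it read 8.40, 8.20 and 8.55 in siSRC-1_V and 8.45, 8.73 and 8.54 in siSRC-1_E, which overlap, at 0.19 (adjusted p = 0.239). EIF4EBP1, which blocks cap-dependent translation when unphosphorylated, differed by -0.068 and -0.011 log2 with non-targeting and SRC-1 siRNA. XPOT, the tRNA export factor, differed by -0.044 and -0.12, the latter without overlap, as 12.8% of all tested probe sets were lower with SRC-1 siRNA. STC2, a secreted stanniocalcin, had values from 5.28 to 5.73 log2 over all arrays, close to the lower quartile of the arrays, and differed by -0.13 and -0.090.

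Enzymes that make amino acids gave no estradiol call with either pool. ASNS, asparagine synthetase and a classic ATF4 target whose promoter core is printed above, read 8.82, 8.75 and 8.80 log2 in NT_V, 8.70, 8.79 and 8.69 in NT_E, 8.75, 8.80 and 8.83 in siSRC-1_V, and 8.70, 8.86 and 8.62 in siSRC-1_E. The groups overlap, with differences of -0.063 (interval -0.20 to 0.071) and -0.071 (-0.21 to 0.063). The serine pathway enzymes PHGDH, which takes the entry step, and PSAT1, the aminotransferase that follows, differed by 0.036 and -0.076 log2 with non-targeting siRNA and by 0.051 and 0.028 with SRC-1 siRNA. PSPH, the phosphatase of the last step, differed by 0.075 and -0.11.

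Of the mitochondrial folate enzymes, SHMT2, which converts serine to glycine, differed by 0.051 and -0.033 log2 with non-targeting and SRC-1 siRNA. MTHFD2, which acts after it, differed by -0.014 and -0.0012, and ALDH1L2, which oxidizes formyl-tetrahydrofolate, by 0.051 and -0.083. The proline synthesis genes ALDH18A1 and PYCR1 differed by -0.080 and -0.0008 with non-targeting siRNA and by -0.054 and -0.075 with SRC-1 siRNA. CTH, which releases cysteine from cystathionine, differed by -0.029 and -0.12, and PCK2, mitochondrial phosphoenolpyruvate carboxykinase, by 0.079 and 0.025. With non-targeting siRNA arrays did not overlap for ALDH18A1, lower, and PCK2, higher (10.9% and 10.1% of all tested probe sets). With SRC-1 siRNA they did not overlap for CTH and PYCR1, both lower (12.8% of all tested). Other probe sets exist for PSPH and MTHFD2; for MTHFD2 the 2 disagree in sign with non-targeting siRNA (-0.014 and 0.052), and for PSPH they read 0.075 and 0.012. None of these was called.

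SRC-1 siRNA under vehicle asks what loss of SRC-1 transcripts does without hormone. Only PSAT1 was called, lower, 1 of 32 members, where 1.21% of all tested probe sets were called (0.265% higher and 0.945% lower). It read 9.31, 9.08 and 9.36 log2 in NT_V and 8.75, 8.96 and 8.71 in siSRC-1_V, without overlap. The difference was -0.45 ± 0.082 log2 (SE, 3 arrays per group), a 1.36-fold decrease with an interval from -0.63 to -0.27 (limma adjusted p = 0.0233). Under estradiol PSAT1 read 9.14, 9.13 and 9.25 in NT_E and 8.82, 8.86 and 8.82 in siSRC-1_E, again without overlap. That difference was -0.34 ± 0.082 (adjusted p = 0.0643), not called. It was called with a trended and robust variance (0.0138), with the lowest 40% of probe sets left out (0.0278), with only the compared arrays (0.0468) and without NT_V replicate 2 (0.0368) or siSRC-1_V replicate 2 (0.0422). The comparisons under vehicle and under estradiol share no arrays, but the variance in each test was estimated from all 12. All 6 arrays with SRC-1 siRNA read below all 6 with the non-targeting pool. The share of all tested probe sets that did so was not counted. Lower without overlap were 10.2% of all tested probe sets under vehicle and 11.5% under estradiol.

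The PSAT1 call under vehicle was lost without NT_V replicate 1 or 3 (adjusted p = 0.107 and 0.106) or siSRC-1_V replicate 1 or 3 (0.0826 and 0.0953), at -0.39 to -0.53 log2 over all fits that left out 1 array. It was also lost with the replicate number as a block (0.0559) and on the compared arrays alone (0.161), and held with the control probe set covariate (-0.45 log2, 0.0345). A single pool targeted SRC-1, and an effect of that pool on other transcripts cannot be told apart from loss of SRC-1. Of the neighbouring steps of serine synthesis, PHGDH differed by 0.043 and PSPH by 0.044 log2 under vehicle, and by 0.058 and -0.15 under estradiol, with no call; the other PSPH probe set gave 0.058 and 0.013. ALDH1L2 differed the other way, with 7.85, 7.73 and 7.71 log2 in NT_V against 8.16, 7.94 and 8.04 in siSRC-1_V, which do not overlap. That difference was 0.28 ± 0.082 (adjusted p = 0.153), and 0.15 under estradiol (adjusted p = 0.411).

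The median over the 32 members was 0.0044 log2 under vehicle, against 0.0013 over all tested probe sets. Intervals of 28 members (87.5%) lay within 0.3 log2, against 72.61% of all tested probe sets. Groups did not overlap for 8 members, 3 higher and 5 lower, and for 18.4% of all tested probe sets (8.19% higher and 10.2% lower). Values for the upstream and factor genes lay between -0.072 for ATF4 and 0.11 for DDIT3. The transporters lay between -0.077 for SLC7A11 and 0.078 for SLC38A2. EIF4EBP1 read 10.33, 10.34 and 10.39 log2 in NT_V and 10.16, 10.24 and 10.13 in siSRC-1_V, with no overlap. Its difference was -0.18 ± 0.050 (adjusted p = 0.143), called with a trended and robust variance alone (0.0303).

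SRC-1 siRNA under estradiol lowered CHAC1 and SESN2, 2 of 32 members, where 1.80% of all tested probe sets were called (0.732% higher and 1.07% lower). For CHAC1 the arrays listed above gave -0.32 ± 0.049 log2 (SE, 3 arrays per group), a 1.25-fold decrease with an interval from -0.43 to -0.21 (limma adjusted p = 0.0079). It held in all 12 fits that each left out 1 array, and was lost with the covariate (-0.25 log2, 0.145) and with only the compared arrays (0.0582). For SESN2 the difference was -0.29 ± 0.060 log2, a 1.22-fold decrease (adjusted p = 0.0381). It held without NT_V replicate 2, siSRC-1_V replicate 1 or siSRC-1_V replicate 2, and without any of the other 9 arrays (NT_V 1 and 3, NT_E 1 to 3, siSRC-1_V 3, siSRC-1_E 1 to 3) the adjusted p was 0.0504 to 0.138. It was also lost with the replicate block (0.0612), the covariate (0.229), all probe sets tested (0.0521) and only the compared arrays (0.134).

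Under vehicle the same genes gave -0.018 log2 for CHAC1 and -0.10 for SESN2, neither called, and TRIB3 gave -0.044. TRIB3 under estradiol gave -0.17 (adjusted p = 0.125), with all siSRC-1_E arrays below all NT_E arrays. The siSRC-1_E arrays serve both this comparison and estradiol with SRC-1 siRNA, so low values there enter both, as NT_V values enter both comparisons with NT_V and NT_E values both with NT_E. The mean of siSRC-1_E was the lowest of the 4 groups for 14 of 32 members (43.8%), and for 33.6% of all tested probe sets. Among the 7 stress-response targets the median difference under estradiol was -0.12 log2, among the 7 transporters -0.047, among the 6 serine and folate enzymes -0.043, among the 5 other amino acid enzymes -0.0013, and among the 7 upstream and factor genes 0.0087. Over all 32 it was -0.039, against -0.0063 over all tested probe sets, and 13 members had groups without overlap, 4 higher and 9 lower, as had 22.3% of all tested (10.7% higher and 11.5% lower).

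Some uncalled values under estradiol were of like size. GDF15 gave 0.33 ± 0.092 log2 (SE; adjusted p = 0.107), with all siSRC-1_E arrays above all NT_E arrays. PPP1R15A read 9.76, 9.94 and 9.78 log2 in NT_E and 9.67, 9.65 and 9.52 in siSRC-1_E, a difference of -0.21 (adjusted p = 0.127) without overlap. SLC7A11 gave -0.22 (adjusted p = 0.143), from 10.92, 10.87 and 11.06 in NT_E to 10.59, 10.85 and 10.76 in siSRC-1_E. All 3 were called with a trended and robust variance (0.0376, 0.0375 and 0.0452) and under no other setting run. ATF4 gave -0.038 log2 (interval -0.13 to 0.053). Its lower-reading probe set gave -0.15 (interval -0.29 to -0.0080; adjusted p = 0.288) under estradiol and -0.13 (-0.27 to 0.012; adjusted p = 0.444) under vehicle, without overlap in either and not called. DDIT3 gave 0.10 and ATF5 0.0087 under estradiol.

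**Figure D3:**
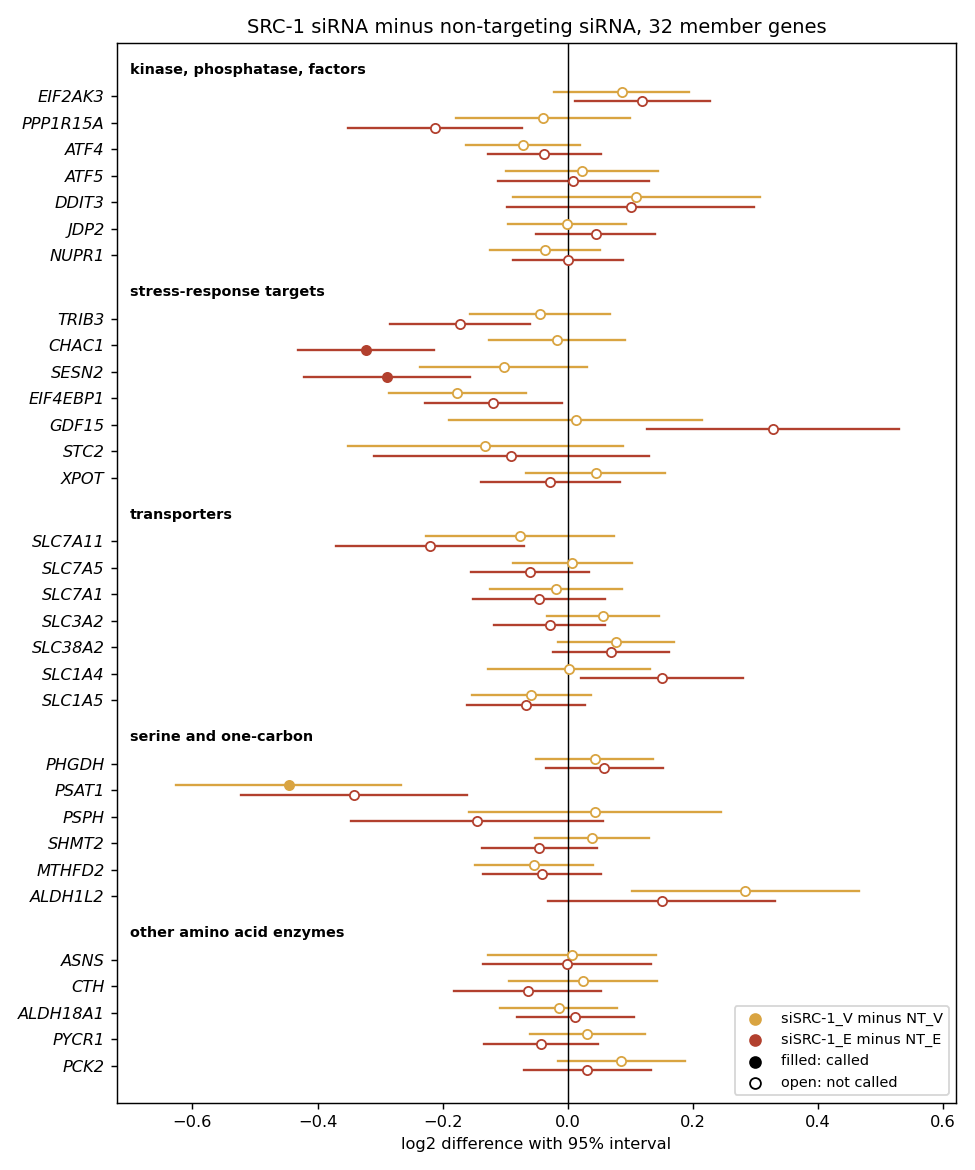
Log2 difference of SRC-1 siRNA minus non-targeting siRNA for the 32 members, by role, under vehicle (yellow) and under estradiol (red); lines are 95% intervals and filled points are called. Filled points are PSAT1 under vehicle and CHAC1 and SESN2 under estradiol, all below 0.

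Whether SRC-1 siRNA alters the estradiol response was tested by subtracting the effect with non-targeting siRNA from that with SRC-1 siRNA. In limma 0 of 32 members and 0 of 29094 probe sets (0%) were called, while 2 members and 2102 probe sets had an unadjusted p under 0.05. Under a trended, robust variance 2 probe sets and 0 members were called. The members under 0.05 were CHAC1, given above, and GDF15, at 0.32 ± 0.13 log2 (SE; interval 0.029 to 0.60; adjusted p = 0.671). Intervals of 31 of the 32 differences lay within 0.5 log2 of 0 and those of 22 (68.75%) within 0.3, against 46.59% of all tested probe sets. ASNS (-0.20 to 0.18), MTHFD2 (-0.12 to 0.15), SLC1A5 (-0.14 to 0.13) and PHGDH (-0.12 to 0.15) had intervals around 0. For DDIT3 (-0.29 to 0.27) and STC2 (-0.27 to 0.35) the arrays allow differences of up to about that size in either direction.

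Other genes of the pathway were taken from 4 further lists. The eIF2 kinases, their regulators and eIF2B subunits (12 genes) gave no call for estradiol and 1 for SRC-1 siRNA under estradiol, where 1.80% of all tested probe sets were called (2.73% and 6.88% for estradiol). That was EIF2B2, a subunit of the exchange factor that eIF2 phosphorylation inhibits, at -0.18 ± 0.038 log2 (SE; adjusted p = 0.041), which held in 1 of 12 fits that left out 1 array, that without siSRC-1_V replicate 1 (otherwise 0.0546 to 0.139). It was also lost with the replicate block (0.0635), on the compared arrays alone (0.158) and with the covariate (0.272). Under vehicle EIF2B2 gave a like value of -0.18 log2, without overlap and not called (limma adjusted p = 0.0543). There it was called with the lowest 40% of probe sets left out (0.0135) and with a trended and robust variance (0.00298). EIF2AK1, the heme-regulated kinase, and EIF2S1, the eIF2 subunit that is phosphorylated, differed with estradiol and non-targeting siRNA by 0.0073 and 0.013 log2. The 14 cytosolic tRNA synthetase genes, many of which ATF4 induces, gave no call in any of the 5 comparisons. For SRC-1 siRNA under vehicle 1.21% of all tested probe sets were called, and for the difference of the estradiol effects 0%. LARS, for leucine, is outside the rule for named genes and was chosen after its values were seen. It gave 0.19 log2 with SRC-1 siRNA under vehicle, without overlap (limma adjusted p = 0.0562). It was called there with the lowest 40% left out (0.0149), quantile normalization (0.0317) and a trended and robust variance (0.00502). GARS and NARS, for glycine and asparagine, differed by 0.039 and -0.017 log2 with estradiol and non-targeting siRNA.

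Of 18 chaperone and unfolded protein response genes of the endoplasmic reticulum, 1 was called in 1 comparison, estradiol with SRC-1 siRNA, where 6.88% of all tested probe sets were called. HERPUD1, which aids degradation of misfolded proteins, read 11.34, 11.33 and 11.37 log2 in siSRC-1_V and 11.09, 11.16 and 11.04 in siSRC-1_E. Its difference was -0.25 ± 0.063 (SE; adjusted p = 0.0355). It held without NT_E replicate 1, 2 or 3 or siSRC-1_E replicate 2, and without each of the other 8 arrays the adjusted p was 0.05 to 0.113. It was also lost on the compared arrays alone (0.0519) and with the covariate (-0.10 log2, 0.872). With the non-targeting pool HERPUD1 read 11.14, 11.16 and 11.17 log2 in NT_V and 11.09, 11.13 and 10.87 in NT_E, also without overlap but not called. All siSRC-1_V arrays lay above all NT_V arrays, again without a call. HSPA5, the chaperone BiP, differed by 0.013 log2 with non-targeting and -0.0056 with SRC-1 siRNA, and HSP90B1 by -0.013 and 0.029, neither called.

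Of 22 partners and further targets of ATF4, 4 were called higher and 1 lower for estradiol with non-targeting siRNA, and 4 higher and 2 lower with SRC-1 siRNA, where 2.73% and 6.88% of all tested probe sets were called. For SRC-1 siRNA 2 were called lower under vehicle (1.21% of all tested), and 1 higher and 2 lower under estradiol (1.80%). HMOX1, heme oxygenase, read 10.67, 10.68 and 10.71 log2 in NT_V and 11.48, 11.51 and 11.65 in NT_E, and 10.22, 10.25 and 10.26 in siSRC-1_V and 11.33, 11.35 and 11.25 in siSRC-1_E. Estradiol raised it 1.81-fold and 2.09-fold (0.86 ± 0.051 and 1.07 ± 0.051 log2, SE; adjusted p = 2.26e-06 and 4.27e-07), a call held under every setting run. SRC-1 siRNA lowered HMOX1 under vehicle by 0.44 log2 (adjusted p = 0.00161), also under every setting. Its value of -0.23 log2 under estradiol (adjusted p = 0.0438) held in 0 of 12 fits that left out 1 array (0.054 to 0.151). It was also lost with the replicate block (0.063), on the compared arrays alone (0.164), with quantile normalization (0.065), with the covariate (0.259) and with all probe sets tested (0.0566).

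CEBPB, a C/EBP protein that pairs with ATF4, rose with estradiol with either pool. It read 9.94, 9.87 and 9.94 log2 in NT_V and 10.48, 10.55 and 10.49 in NT_E, and the log2 differences were 0.59 ± 0.045 and 0.49 ± 0.045 (SE; adjusted p = 1.74e-05 and 7.3e-05). VEGFA, the angiogenic growth factor, rose 1.27-fold and 1.24-fold (0.35 and 0.31 log2; adjusted p = 0.000778 and 0.00138). With the covariate CEBPB and VEGFA were not called with SRC-1 siRNA (0.146 and 0.453). SLC6A9, a glycine transporter, rose by 0.21 log2 with non-targeting siRNA (adjusted p = 0.0174) and by 0.33 with SRC-1 siRNA (0.000585; 0.307 with the covariate), and was 0.22 log2 higher with SRC-1 than with non-targeting siRNA under estradiol (0.0191). The weaker of its estradiol calls was lost without NT_V replicate 2 or 3 or any NT_E replicate (0.0539 to 0.0832), and the siRNA call without any NT_E replicate or siSRC-1_E replicate 1 or 2 (0.0628 to 0.0715). Both were also lost with the covariate (0.186 and 0.179) and on the compared arrays alone (0.0791 and 0.0962).

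ATF3, a factor that ATF4 induces under stress, went the other way. It is outside the rule for named genes and was chosen after its values were seen, as was SLC38A1. ATF3 read 8.18, 8.07 and 8.24 log2 in NT_V and 7.60, 7.94 and 7.64 in NT_E, and 8.13, 7.91 and 8.18 in siSRC-1_V and 7.71, 7.70 and 7.62 in siSRC-1_E, without overlap in either comparison. It fell by 0.43 and 0.40 log2 (limma adjusted p = 0.0293 and 0.0279). The call with non-targeting siRNA was lost without NT_V replicate 1 or 3 or NT_E replicate 1 or 3 (0.0976 to 0.121), and that with SRC-1 siRNA without siSRC-1_V replicate 1 or 3 or any siSRC-1_E replicate (0.0554 to 0.102). It was lost with the covariate in both (0.0891 and 0.38), and with non-targeting siRNA also with the replicate block (0.0642) and only the compared arrays (0.0945). SLC38A1, a relative of SLC38A2, was called lower with SRC-1 siRNA at -0.20 log2 (0.0381), which held without NT_V replicate 2 or 3 or siSRC-1_V replicate 1 and was lost without each of the other 9 arrays (0.0506 to 0.129) as well as with quantile normalization (0.0562), on the compared arrays alone (0.102) and with the covariate (0.624).

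SRC-1 siRNA lowered VLDLR, a lipoprotein receptor that ATF4 induces, with either treatment. It read 8.57, 8.45 and 8.48 log2 in NT_V and 8.24, 8.03 and 8.15 in siSRC-1_V, and 8.35, 8.38 and 8.43 in NT_E and 8.11, 8.09 and 8.12 in siSRC-1_E, without overlap. The differences were -0.36 ± 0.056 and -0.28 ± 0.056 log2 (SE; adjusted p = 0.00919 and 0.0338). The call under vehicle was lost without NT_V replicate 1 (0.0519). That under estradiol held without NT_V replicate 1 or 2 or siSRC-1_V replicate 1 or 2 and was lost without each of the other 8 arrays (0.0533 to 0.107). On the compared arrays alone neither was called (0.117 and 0.062).

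**Figure D4:**
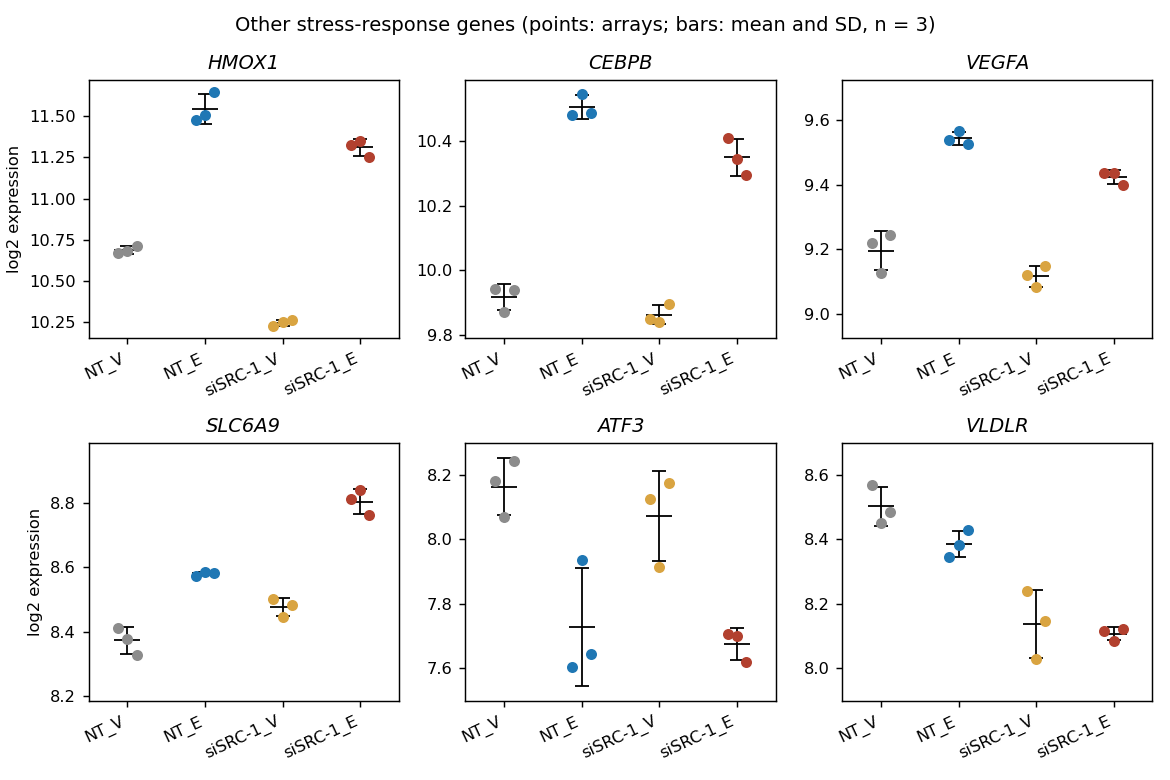
Log2 expression of 6 further stress-response genes on each array, by group (points are arrays, bars the mean and SD of 3); each panel has its own vertical range. HMOX1, CEBPB, VEGFA and SLC6A9 are higher and ATF3 lower in both estradiol groups, and VLDLR is lower in both SRC-1 siRNA groups.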

How the data were processed

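The authors deposited log2 values for each probe set, made from the array files with the affy package and tested with limma, per the series' design text and the submitters' processing notes; versions, background correction, normalization and genome build are not given in the sources used here. Of 33297 probe sets, 4203 with identifiers below the earliest listed for a gene (7896740) were taken as controls, an inference from identifiers, and 29094 were tested. The array number limits the precision; no depth applies.

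Group means of the 12 arrays were modelled in limma (version 3.58.1, R 4.3.3) with moderated variances (prior degrees of freedom 3.15, residual 8), two-sided, at the study's threshold. The test was tried on simulated data. Members and lists were chosen with earlier results of these data known. Named genes were all members, NCOA1, ESR1 and, for each list and comparison, up to 4 called genes with the smallest p, or up to 2 with the highest mean where none was called. Alternatives were a replicate block, a fit on the compared arrays alone, dropping the lowest 40%, quantile normalization, trended and robust variance, the control probe set mean as a covariate, all probe sets, the mean over a gene's probe sets, and each array left out. Replicate numbers were checked for pairing. Promoter sequences are RefSeq's.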

Additional observations from a re-analysis of the deposited data

Results flagged for a closer look

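CHAC1 stood out since estradiol arrays lay wholly above vehicle arrays with non-targeting siRNA and wholly below them with SRC-1 siRNA. The difference of the estradiol effects was -0.30 log2, tested with limma at an adjusted p of 0.458, so it was not called. The pattern of opposite directions without overlap occurred in 120 of 29094 probe sets.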

How the results depend on the processing

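No call of a member changed direction under any alternative. The main counts of called members were 1, 4, 1, 2 and 0, for estradiol with non-targeting siRNA, estradiol with SRC-1 siRNA, SRC-1 siRNA under vehicle and under estradiol, and the difference of the estradiol effects; those of all probe sets were 793, 2001, 352, 524 and 0. With the replicate block the members called were 0 for SRC-1 siRNA under vehicle and 1 under estradiol; over the 18 pairs of same-numbered arrays deviations correlated at -0.035 to 0.21, over 0.1 in 6, and over the 36 pairs with different numbers at -0.26 to 0.11, over 0.1 in 2, so not every same-numbered pair was alike and the arrays are not shown to be paired. With only the compared arrays, members and all probe sets called were 0 for estradiol with non-targeting siRNA (members), 0 and 958 for estradiol on SRC-1 siRNA, 0 and 90 for siRNA under vehicle, and 1 and 174 under estradiol; fewer arrays estimate the variance there. Leaving out the lowest 40% gave 2 members for estradiol with non-targeting siRNA, and 728 and 1117 probe sets for siRNA under vehicle and estradiol. A trended and robust variance gave 2 members for estradiol with non-targeting siRNA, 2 members and 857 probe sets for siRNA under vehicle, 6 and 1246 under estradiol, and 2 probe sets for the difference. With the covariate members and probe sets were 0 and 366 for estradiol after the non-targeting pool, 0 and 106 after the SRC-1 pool, and 0 and 121 for siRNA under estradiol. The covariate differs without overlap between the groups compared there, so this fit separates the 2 poorly. The cause of the lower counts was not tested. Testing all probe sets gave 1 member for siRNA under estradiol. Leaving out 1 array gave 0 to 1, 2 to 4, 0 to 1, 1 to 3 and 0 to 0 members, and 531 to 783, 1042 to 2956, 169 to 338, 216 to 547 and 0 to 0 probe sets. Quantile normalization, or the mean over a gene's probe sets, left the counts of called members at 1, 4, 1, 2 and 0. Median standard errors of members were 0.050 log2, and 0.070 for the difference.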
